A study of Homo sapiens with 4 samples.

Results

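Nucleolar ribosome biogenesis was followed through 40 human genes, all of them among the 32479 genes of the deposited FPKM table (fragments per kilobase of exon, put on a common library size). The genes were chosen by name, for what their products do, with earlier results of these data known. The RRP genes, ribosomal RNA processing factors described near the end, were not among them. Of the 40 genes, 3 encode box C/D proteins, 4 H/ACA proteins and 3 nucleolar chaperones. Another 16 encode factors of small-subunit assembly, 9 factors of large-subunit assembly and 5 proteins of RNA polymerase I transcription. HepG2 and PLC/PRF/5, 2 human liver cancer lines whose genotype is labelled WT, had each been exposed for 24 h to 20 uM PF429242 or left untreated for 24 h. PF429242 is an inhibitor of the site-1 protease, which releases the SREBP transcription factors of sterol and fatty acid synthesis from their membrane precursors. There was 1 library in each of the 4 groups: HepG2 with PF429242, untreated HepG2, PLC/PRF/5 with PF429242 and untreated PLC/PRF/5. Each group is therefore 1 culture of 1 established line, and no vehicle is named for the untreated cultures.

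Ribosomes are put together in the nucleolus, around the ribosomal RNA that RNA polymerase I transcribes. Box C/D particles carry a ribose methyltransferase and H/ACA particles a pseudouridine synthase to that RNA, each led by a small nucleolar RNA, while assembly factors fold and cut the precursor into the small and the large subunit. Many of these genes are known targets of MYC, whose preferred site is the E-box, and their activity is high in proliferating cells, tumour cells included.

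Several sequence motifs, which the choice of genes had not used, were more frequent in the promoters of the set than in all promoters. RefSeq promoters of GRCh38.p14, 250 bases before to 50 after the start, were matched by symbol for 37 of the 40 genes, giving 43 promoters. BOP1, NOLC1 and NOP58 had no entry. The E-box CACGTG, which reads the same on both strands, was in 18 of the 43 promoters (41.9%). The shares were 7.23% of all 34943 promoters and 9.41% of the 12787 promoters of protein-coding genes expressed here. Of the 18 genes with an E-box, only 6 had one wholly upstream of the start. In the others it reached into or lay within the 50 bases after the start. The ETS motif CCGGAAG on either strand was in 34.9%, against 10.2% of all promoters and 17.5% of the expressed ones. The NRF1 core GCATGCG on either strand was in only 5 of the 43 promoters (11.6%), against 3.88% and 5.85%, and the GC box GGGCGG was in 76.7%, against 44.9% and 66.7%. The 43 promoters had a median GC content of 64%, against 58.7% for all promoters, and the motif shares were not corrected for it. The CCAAT box differed little, at 34.9% against 34.6% of all promoters and 35.2% of the expressed ones. The TATA box TATAAA was in 4.65%, against 11.6% of all promoters but 6.12% of the expressed ones. Letters that match a motif are a description of the sequence and no evidence of binding. The windows below, 60 bases each and upstream of the RefSeq start, show one match per promoter in capitals. They cover E-boxes of a small-subunit pair and of NOP10, ETS motifs of FBL and GAR1, and an NRF1 core of NOB1. The capitals of GAR1 and NOB1 are the motif's other strand.
UTP18, E-box, chr17:51260430-51260489, plus strand: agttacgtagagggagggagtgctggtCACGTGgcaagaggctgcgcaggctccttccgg
UTP20, E-box, chr12:101280045-101280104, plus strand: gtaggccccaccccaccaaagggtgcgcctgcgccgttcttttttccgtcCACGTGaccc
NOP10, E-box, chr15:34343274-34343333, minus strand: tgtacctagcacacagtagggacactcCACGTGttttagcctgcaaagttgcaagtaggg
FBL, ETS motif, chr19:39846539-39846598, minus strand: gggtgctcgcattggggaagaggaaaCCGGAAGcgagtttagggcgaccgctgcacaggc
GAR1, ETS motif, chr4:109815450-109815509, plus strand: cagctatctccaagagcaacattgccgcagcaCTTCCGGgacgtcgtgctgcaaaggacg
NOB1, NRF1 core, chr16:69755033-69755092, minus strand: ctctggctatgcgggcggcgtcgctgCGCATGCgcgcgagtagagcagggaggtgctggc

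The libraries held between 16722204 and 21387301 counted fragments. The 7 hepatocyte-derived markers were at 1 FPKM or more in every library, with summed levels of 2046 to 7402 FPKM. Fibroblast markers summed to at most 0.960 FPKM and endothelial markers to at most 1.37 FPKM. Of the blood markers, CD68 was at most 0.0544 FPKM and LYZ was at 179 to 504 FPKM. The genes of sterol synthesis, the known output of SREBP, served as a check of the treatment. All 11 measured in HepG2 and all 12 measured in PLC/PRF/5 were at least 1.5-fold lower with PF429242, with median log2 ratios of -2.56 and -1.48. Mitochondrial genes took 27.6% of fragments in treated HepG2 against 16.6% in untreated HepG2, and 28.2% in treated PLC/PRF/5 against 21.3% in untreated PLC/PRF/5.

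The 40 genes were abundant in all 4 libraries. Their median level was 15.8 FPKM in treated HepG2, 17.5 FPKM in untreated HepG2, 16.8 FPKM in treated PLC/PRF/5 and 17.8 FPKM in untreated PLC/PRF/5. That median stood above 93.8% to 94.2% of all genes in the table. NPM1 and NCL were the most abundant, with means over the 4 libraries of 332 and 202 FPKM, and DDX21 and NOP10 followed at 86.1 and 84.3 FPKM. At the low end DDX10 averaged 4.50 FPKM. NOP2, a ribosomal RNA methyltransferase of large-subunit assembly, was lower still, at 0.136, 0.179, 0.415 and 0.509 FPKM in treated HepG2, untreated HepG2, treated PLC/PRF/5 and untreated PLC/PRF/5. Those NOP2 values rest on 13, 14, 33 and 51 fragments, and 54.4% of its exon bases lie under another annotated gene of the same strand. The remaining 39 genes, each with at least 161 fragments in every library, passed the minimum of 1 FPKM and are the ones counted below.

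**Figure D1:**
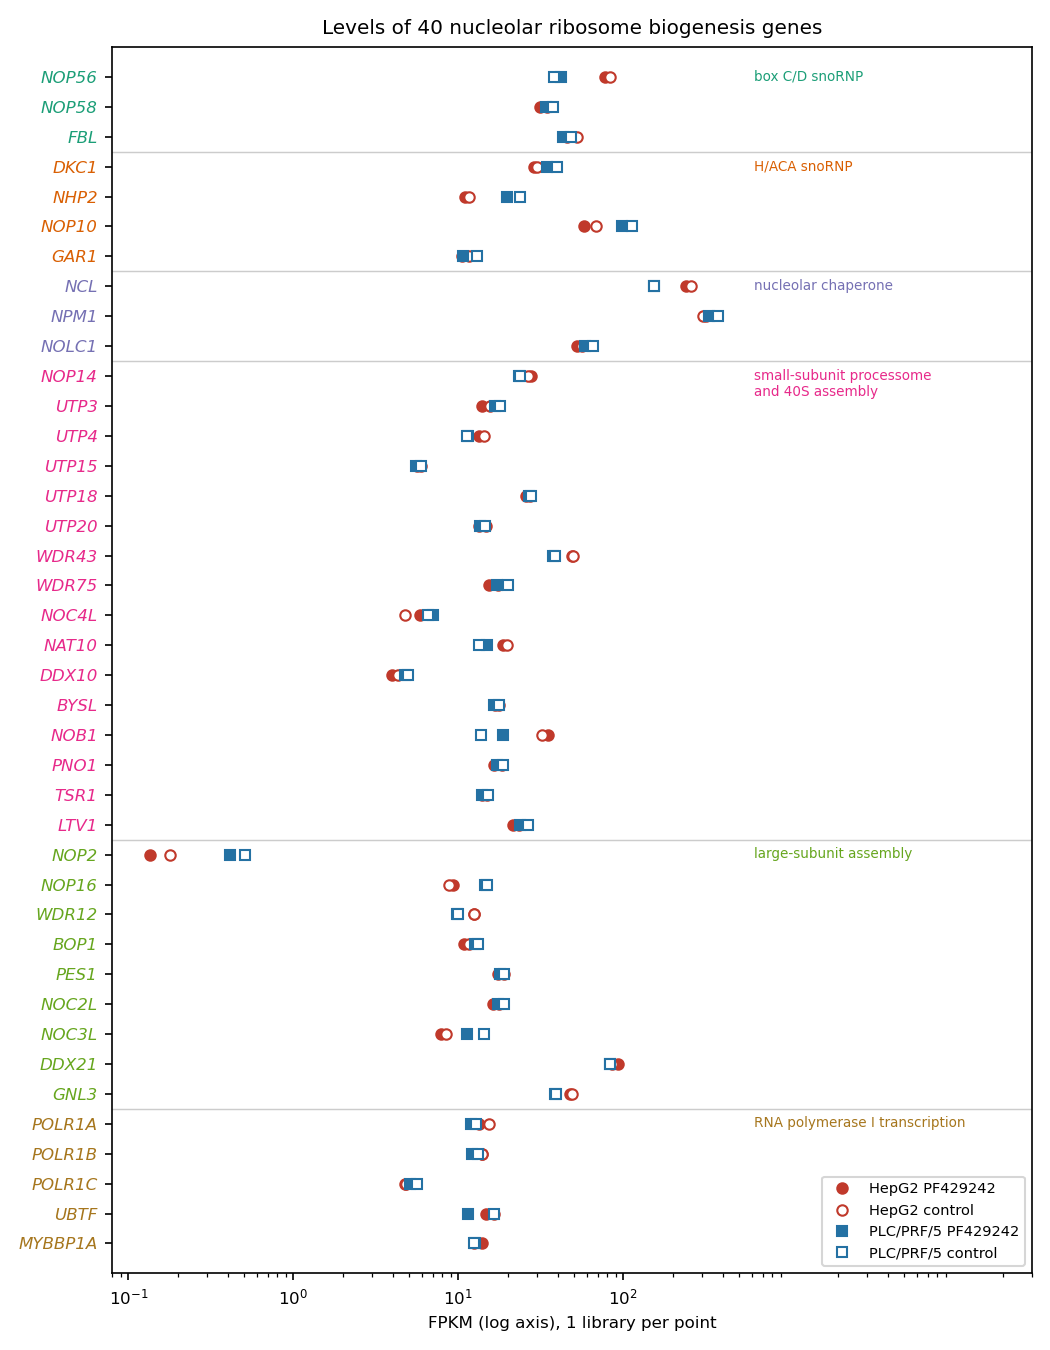
FPKM of the 40 genes on a log axis, 1 library per point: filled symbols are PF429242, open symbols untreated, red circles HepG2 and blue squares PLC/PRF/5, grouped by role. Treated and untreated points of a line mostly touch, whereas NOP56, NHP2, NOP10, NCL and NOB1 separate the lines, and NOP2 alone lies below 1 FPKM.

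On the deposited scale no measured gene of the set passed 1.5-fold with PF429242 in either line, a count near that of the background. None of the 39 genes was 1.5-fold lower or 1.5-fold higher in treated HepG2 than in untreated HepG2, where 5.54% of all measured genes were lower and 2.33% were higher by that fold. None was 1.5-fold lower or higher in treated PLC/PRF/5 either, where the shares over all genes were 5.07% and 4.25%. Among protein-coding genes those shares were 2.53% and 0.41% in HepG2, and 2.41% and 1.84% in PLC/PRF/5, so 0 in 39 says little about the set. On the TPM scale (each gene's share of all length-scaled fragments) 4 of the genes were 1.5-fold lower in treated PLC/PRF/5, and the medians of the 40 genes were -0.41 in HepG2 and -0.42 in PLC/PRF/5. With 1 library a group these ratios have no replicate check. The intervals given below are 95% intervals of counting error alone, and they compare libraries, not conditions.

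The median log2 ratio of (FPKM + 1) over the 39 genes was -0.09 in HepG2 and -0.10 in PLC/PRF/5. Over all measured genes it was -0.17 in HepG2 (12347 genes) and -0.13 in PLC/PRF/5 (13144 genes). Of the 39 genes, 36 lay within 0.2 of 0 in HepG2 and 32 in PLC/PRF/5. Their median absolute deviation was 0.049 in HepG2, against 0.10 for 6038 protein-coding genes of 5 FPKM or more, and 0.068 in PLC/PRF/5, against 0.13 for 6379 such genes. The 25th and 75th percentiles of those protein-coding genes were -0.30 and -0.09 in HepG2 and -0.29 and -0.03 in PLC/PRF/5. They were not matched to the set in level or fragments, so the smaller deviation cannot be read as a trait of the set. Counting intervals lay wholly below 1 for 13 genes, wholly above 1 for 3 and held 1 for 23 in HepG2. In PLC/PRF/5 those numbers were 17, 3 and 19. The same counts over all genes were not made. In a bulk culture, fewer cells of a type and less RNA per cell cannot be told apart.

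**Figure D2:**
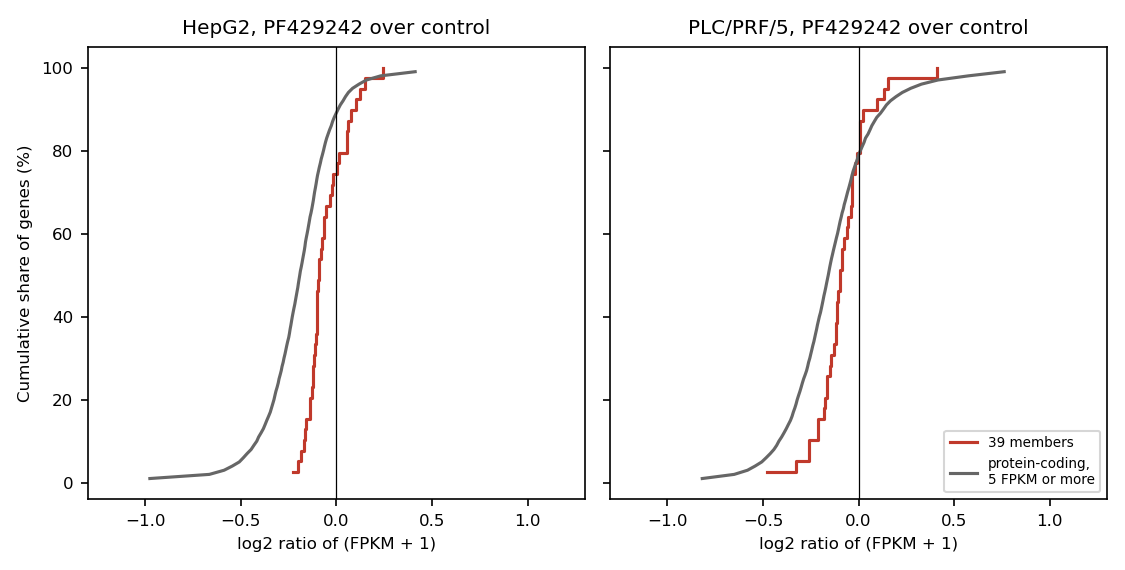
Cumulative share of genes (%) against the log2 ratio of (FPKM + 1), PF429242 over control, for the 39 measured genes (red steps) and for protein-coding genes of 5 FPKM or more (grey, 1st to 99th percentile), with HepG2 left and PLC/PRF/5 right. The red steps are steeper in both panels, and their medians are -0.09 in HepG2 and -0.10 in PLC/PRF/5.

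The side of 0 on which the set falls depended on the scale, and so did the median of all genes. On the deposited scale 30 of the 40 genes were below 0 in HepG2 and 32 of 40 in PLC/PRF/5. The shares below 0 over all measured genes were 82.4% in HepG2 and 70.9% in PLC/PRF/5. Scaled to TPM, 40 of 40 in HepG2 and 39 of 40 in PLC/PRF/5 were below 0, and the medians of all genes moved to -0.48 and -0.43. Scaled by the median of ratios, 2 of 40 in HepG2 and 15 of 40 in PLC/PRF/5 were below 0, with medians of all genes of 0.01 and -0.02. With nuclear genes set to equal sums, 5 of 40 in HepG2 and 30 of 40 in PLC/PRF/5 were below 0, with medians of all genes of -0.03 and -0.10. As a share of nuclear fragments, the 40 genes together took 0.891% in treated HepG2 against 0.801% in untreated HepG2, and 0.783% in treated PLC/PRF/5 against 0.759% in untreated PLC/PRF/5. No common rise or fall of the set can therefore be read from these libraries, and the genes are described below by their own values and their order.

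Both lines together gave 1 further test, in which the lines act as replicates of the treatment. In a limma fit over 12838 genes with the line as a block, 0 of the 39 genes passed an adjusted p of 0.05, and 0% of all genes did. At an unadjusted p under 0.05 limma had 2 of the 39, against 19.4% of all genes: NOP10 (log2 difference -0.22, SE 0.070, adjusted p = 0.23) and UBTF (-0.32, SE 0.11, adjusted p = 0.24). On the deposited scale both were lower with PF429242 in both lines. By the median of ratios limma again had 2 of the 39 at an unadjusted p under 0.05, against 10.6% of all genes, but 0 of these 2 were lower. Without the trend limma had 0 of the 39, against 16.0% of all genes.

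**Figure D3:**
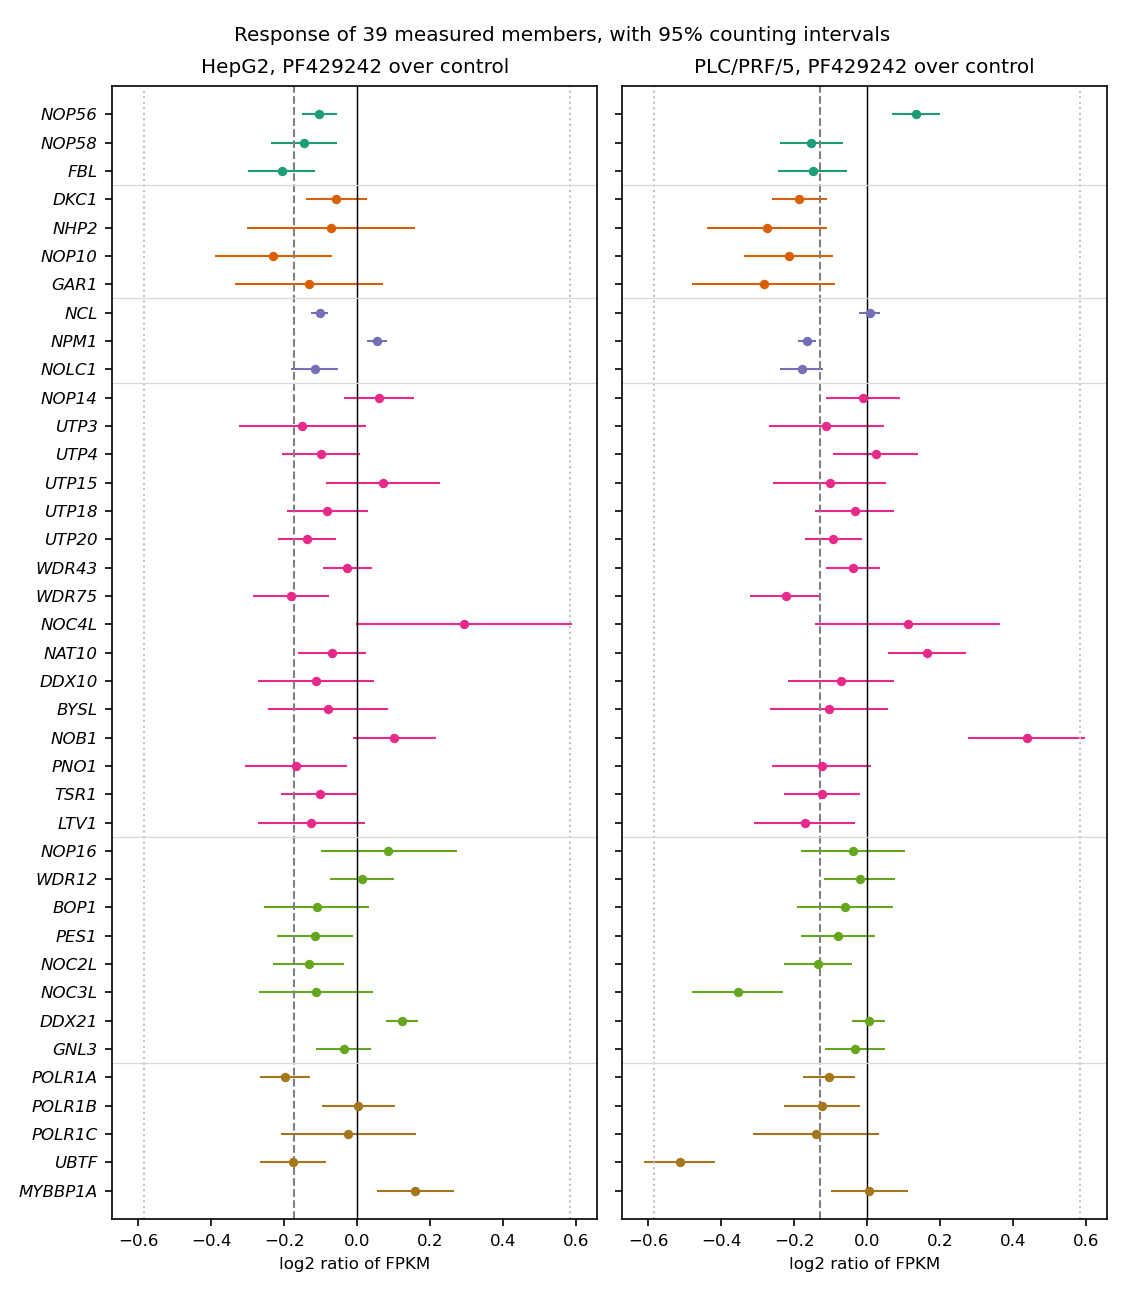
Log2 ratio of FPKM, PF429242 over control, for each of the 39 measured genes with its 95% counting interval, HepG2 left and PLC/PRF/5 right, coloured by role. The dashed line is the median of all genes on the log2 (FPKM + 1) scale and the dotted lines mark 1.5-fold; every point lies between the dotted lines, with UBTF the lowest and NOB1 the highest in PLC/PRF/5.

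The 3 box C/D genes were below 0 in HepG2 on the deposited scale, as were 82.4% of all measured genes. By the median of ratios they were above 0, with log2 ratios of 0.11 for NOP56, 0.07 for NOP58 and 0.01 for FBL. Their values on the deposited scale follow. FBL, the ribose methyltransferase fibrillarin (GRCh38 chr19:39834458-39846414), stood at 45.5 FPKM in treated HepG2 against 52.5 FPKM in untreated HepG2, and at 43.2 FPKM in treated PLC/PRF/5 against 47.9 FPKM in untreated PLC/PRF/5. Its ratios were 0.867 (0.813 to 0.924) in HepG2 and 0.902 (0.845 to 0.963) in PLC/PRF/5. NOP58, a scaffold protein of the same particle, had ratios of 0.905 in HepG2 and 0.900 in PLC/PRF/5. NOP56, the partner scaffold of NOP58 (chr20:2652145-2658393), stood at 77.6 FPKM in treated HepG2 against 83.4 FPKM in untreated HepG2, and at 41.7 FPKM in treated PLC/PRF/5 against 38.0 FPKM in untreated PLC/PRF/5. Its ratio was 0.931 (0.901 to 0.962) in HepG2 and 1.10 (1.05 to 1.15) in PLC/PRF/5. NOP56 hosts small nucleolar RNAs in its introns, and 8.74% of its exon bases lie under annotated small RNAs.

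On the deposited scale all 4 H/ACA genes were below 0 in each of the 3 contrasts. Over all measured genes, 82.4% were below 0 in HepG2, 70.9% in PLC/PRF/5 and 53.3% between the untreated lines. By the median of ratios DKC1, NHP2 and GAR1 were above 0 in HepG2, with log2 ratios of 0.15, 0.13 and 0.08, and in TPM GAR1 was above 0 between the untreated lines, at 0.04. On the deposited scale their median log2 ratios were -0.09 in HepG2, -0.24 in PLC/PRF/5 and -0.55 for untreated HepG2 over untreated PLC/PRF/5. DKC1, the pseudouridine synthase dyskerin, stood at 28.8 FPKM in treated HepG2 against 30.0 FPKM in untreated HepG2, and at 34.7 FPKM in treated PLC/PRF/5 against 39.4 FPKM in untreated PLC/PRF/5. NOP10, its small binding partner (chr15:34341713-34343177), stood at 58.2 FPKM in treated HepG2 against 68.2 FPKM in untreated HepG2, and at 97.6 FPKM in treated PLC/PRF/5 against 113 FPKM in untreated PLC/PRF/5. The treated library was the lower one in both lines for DKC1 and for NOP10. In HepG2 the ratio of DKC1 was 0.962 (0.907 to 1.02), an interval that held 1, and that of NOP10 was 0.853 (0.763 to 0.953). NHP2 and GAR1, the other core proteins, had ratios of 0.951 and 0.913 in HepG2, and both counting intervals there held 1. In PLC/PRF/5 the ratio of NHP2 was 0.827 (0.738 to 0.927) and that of GAR1 was 0.822 (0.717 to 0.941).

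The 3 chaperones include the 2 most abundant genes of the set. NCL, nucleolin, which binds ribosomal RNA precursors, stood at 241 FPKM in treated HepG2 against 258 FPKM in untreated HepG2, and at 154 FPKM in both PLC/PRF/5 libraries. NPM1, nucleophosmin (chr5:171387116-171411137), stood at 317 FPKM in treated HepG2 against 305 FPKM in untreated HepG2, and at 333 FPKM in treated PLC/PRF/5 against 373 FPKM in untreated PLC/PRF/5. Its ratio was 1.04 (1.02 to 1.06) in HepG2 and 0.892 (0.877 to 0.908) in PLC/PRF/5, on opposite sides of 1. NPM1 has near-identical pseudogene copies, and how the authors' counting shared reads between them is not given, so its level is uncertain. NOLC1, which accompanies small nucleolar particles, stood at 52.1 FPKM in treated HepG2 against 56.5 FPKM in untreated HepG2, and at 58.2 FPKM in treated PLC/PRF/5 against 65.9 FPKM in untreated PLC/PRF/5.

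The 16 small-subunit factors had median log2 ratios of -0.08 in HepG2 and -0.07 in PLC/PRF/5, with 12 of 16 below 0 in each line on the deposited scale. Of all measured genes, 82.4% in HepG2 and 70.9% in PLC/PRF/5 were below 0. NOB1, the endonuclease that makes the last cut of the small-subunit ribosomal RNA (chr16:69741867-69754940), had the highest ratio of the whole set in PLC/PRF/5. It stood at 34.8 FPKM in treated HepG2 against 32.4 FPKM in untreated HepG2, and at 18.7 FPKM in treated PLC/PRF/5 against 13.8 FPKM in untreated PLC/PRF/5. The ratio was 1.07 (0.993 to 1.16) in HepG2 and 1.35 (1.21 to 1.51) in PLC/PRF/5. In PLC/PRF/5 NOB1 remained above 0 on each of the 4 scales, with log2 ratios between 0.10 and 0.53. An antisense gene covers 20.2% of its exon bases, and without strand information reads of the pair cannot be told apart.

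NAT10, the cytidine acetyltransferase of ribosomal RNA, was the other small-subunit gene whose interval lay above 1 in PLC/PRF/5. It stood at 18.7 FPKM in treated HepG2 against 19.6 FPKM in untreated HepG2, and at 15.0 FPKM in treated PLC/PRF/5 against 13.3 FPKM in untreated PLC/PRF/5. NOC4L, a partner of NOP14, had the highest ratio of the set in HepG2, at 1.22 (0.999 to 1.51), from 240 fragments in treated HepG2 and 161 in untreated HepG2. WDR75, of the processome subcomplex that links to RNA polymerase I transcription, was the lowest of the 16 in both lines, with ratios of 0.882 (0.821 to 0.947) in HepG2 and 0.857 (0.801 to 0.916) in PLC/PRF/5. UTP20, a large scaffold protein, had ratios of 0.909 in HepG2 and 0.938 in PLC/PRF/5, both intervals below 1. The processome proteins NOP14, UTP3, UTP4, UTP15, UTP18 and WDR43, the helicase DDX10, and BYSL, PNO1, TSR1 and LTV1 of late small-subunit assembly had ratios that ran between 0.890 (PNO1) and 1.05 (UTP15) in HepG2, and in PLC/PRF/5 between 0.888 (LTV1) and 1.02 (UTP4). Other annotated genes cover 34.8% of the exon bases of LTV1, 20.8% of those of TSR1, 17.1% of those of NOP14 and 10.4% of those of PNO1.

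Of the 9 large-subunit factors, 8 were measured, with median log2 ratios of -0.07 in HepG2 and -0.05 in PLC/PRF/5. DDX21, an RNA helicase of RNA polymerase I transcription and processing, stood at 92.6 FPKM in treated HepG2 against 85.0 FPKM in untreated HepG2, and at 83.5 FPKM in treated PLC/PRF/5 against 83.2 FPKM in untreated PLC/PRF/5. Its ratio was 1.09 (1.06 to 1.12) in HepG2 and 1.00 (0.973 to 1.04) in PLC/PRF/5. NOC3L, which travels with early large-subunit precursors, stood at 7.85 FPKM in treated HepG2 against 8.48 FPKM in untreated HepG2, and at 11.3 FPKM in treated PLC/PRF/5 against 14.4 FPKM in untreated PLC/PRF/5. The gap was the wider one in PLC/PRF/5, with a ratio of 0.782 (0.717 to 0.853). PES1, BOP1 and WDR12, which form one complex, had ratios of 0.924, 0.926 and 1.01 in HepG2 and of 0.946, 0.959 and 0.986 in PLC/PRF/5. NOP16, NOC2L and GNL3, the last of them nucleostemin, had ratios of 1.06, 0.913 and 0.975 in HepG2 and of 0.974, 0.911 and 0.978 in PLC/PRF/5.

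Among the genes of RNA polymerase I transcription, UBTF, the upstream binding factor that opens ribosomal DNA to the polymerase (chr17:44205033-44221626), had the lowest ratio of the whole set in PLC/PRF/5. It stood at 14.7 FPKM in treated HepG2 against 16.6 FPKM in untreated HepG2, and at 11.5 FPKM in treated PLC/PRF/5 against 16.4 FPKM in untreated PLC/PRF/5. The ratios were 0.886 (0.832 to 0.943) in HepG2 and 0.700 (0.655 to 0.749) in PLC/PRF/5. In PLC/PRF/5 its log2 ratio was -0.48 on the deposited scale, -0.82 in TPM, -0.36 by the median of ratios and -0.45 with equal nuclear sums. POLR1A, the largest subunit of the polymerase, stood at 13.3 FPKM in treated HepG2 against 15.3 FPKM in untreated HepG2, and at 12.0 FPKM in treated PLC/PRF/5 against 12.9 FPKM in untreated PLC/PRF/5. On the deposited scale POLR1A was lower in the treated library of each line, with ratios of 0.872 (0.832 to 0.914) and 0.931 (0.886 to 0.978). By the median of ratios its log2 ratio was 0.02 in HepG2 and 0.02 in PLC/PRF/5. MYBBP1A, a nucleolar MYB-binding protein, was higher in treated HepG2, at 13.9 FPKM against 12.4 FPKM in untreated HepG2, and stood at 12.6 FPKM in treated PLC/PRF/5 against 12.5 FPKM in untreated PLC/PRF/5. POLR1B, the second-largest subunit, and POLR1C, which RNA polymerase III shares, had ratios of 1.00 and 0.983 in HepG2 and of 0.918 and 0.908 in PLC/PRF/5. Of the exon bases of POLR1C, 18.2% lie under other annotated genes.

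Set side by side on the deposited scale, 25 of the 39 genes were below 0 in both lines, 4 were above 0 in both, 4 were below 0 in HepG2 and above it in PLC/PRF/5, and 6 were the other way round. Each line taken alone had most genes below 0, at 82.4% of all measured genes in HepG2 and 70.9% in PLC/PRF/5. Across the 39 genes the 2 lines' log2 ratios had a Pearson's r of 0.51 and a Spearman's rho of 0.54. This is a description of genes that share their libraries and the scale shift, and genes are not independent replicates. The ratio of the HepG2 ratio to the PLC/PRF/5 ratio had a counting interval that held 1 for 29 genes, lay above 1 for 6 and below 1 for 4. The interval was 1.16 to 1.38 for UBTF, 1.14 to 1.20 for NPM1, 0.803 to 0.897 for NOP56 and 0.693 to 0.906 for NOB1. The median difference in response, HepG2 minus PLC/PRF/5, was 0.02 on the log2 scale, against -0.05 over all 14429 genes.

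The lines themselves differed more than the treatments did, and 7 genes passed 1.5-fold between the untreated libraries. Of the 39 genes, 3 were higher and 4 lower in untreated HepG2 than in untreated PLC/PRF/5, against 19.8% and 23.7% of all 13861 measured genes. The higher ones were NOB1, NOP56 and NCL, and the lower ones NHP2, NOP10, NOP16 and NOC3L. The median absolute deviation of the 39 log2 ratios was 0.17, against 0.46 for 7014 protein-coding genes of 5 FPKM or more, which were not matched in level. The median of the 39 was -0.02, against -0.06 for all genes.

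For NOB1 the ratio of untreated HepG2 to untreated PLC/PRF/5 was 2.34 (2.12 to 2.59), and for NOP56 it was 2.19 (2.11 to 2.28). On the log2 (FPKM + 1) scale these were the measured genes of the set past 2-fold, a fold that 10% of all genes reached upward and 13.1% downward. For NCL the ratio was 1.68 (1.65 to 1.71). NHP2 stood at 11.6 FPKM in untreated HepG2 against 23.7 FPKM in untreated PLC/PRF/5, a ratio of 0.488 (0.425 to 0.559). NOP10 had a ratio of 0.603, NOP16 of 0.592 and NOC3L of 0.589. An other-strand gene covers 27.4% of the exon bases of NHP2, and other annotated genes cover 20.0% of those of NOP16. For NOB1 such overlap was 20.2%. When the 9 genes with over 10% were left out, NOB1 among them, the lower count was 2 in place of 4. The higher count was then 2 in place of 3. The untreated levels of UBTF, DDX21, MYBBP1A, PES1 and BYSL, by contrast, had ratios between the lines whose counting intervals held 1.

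**Figure D4:**
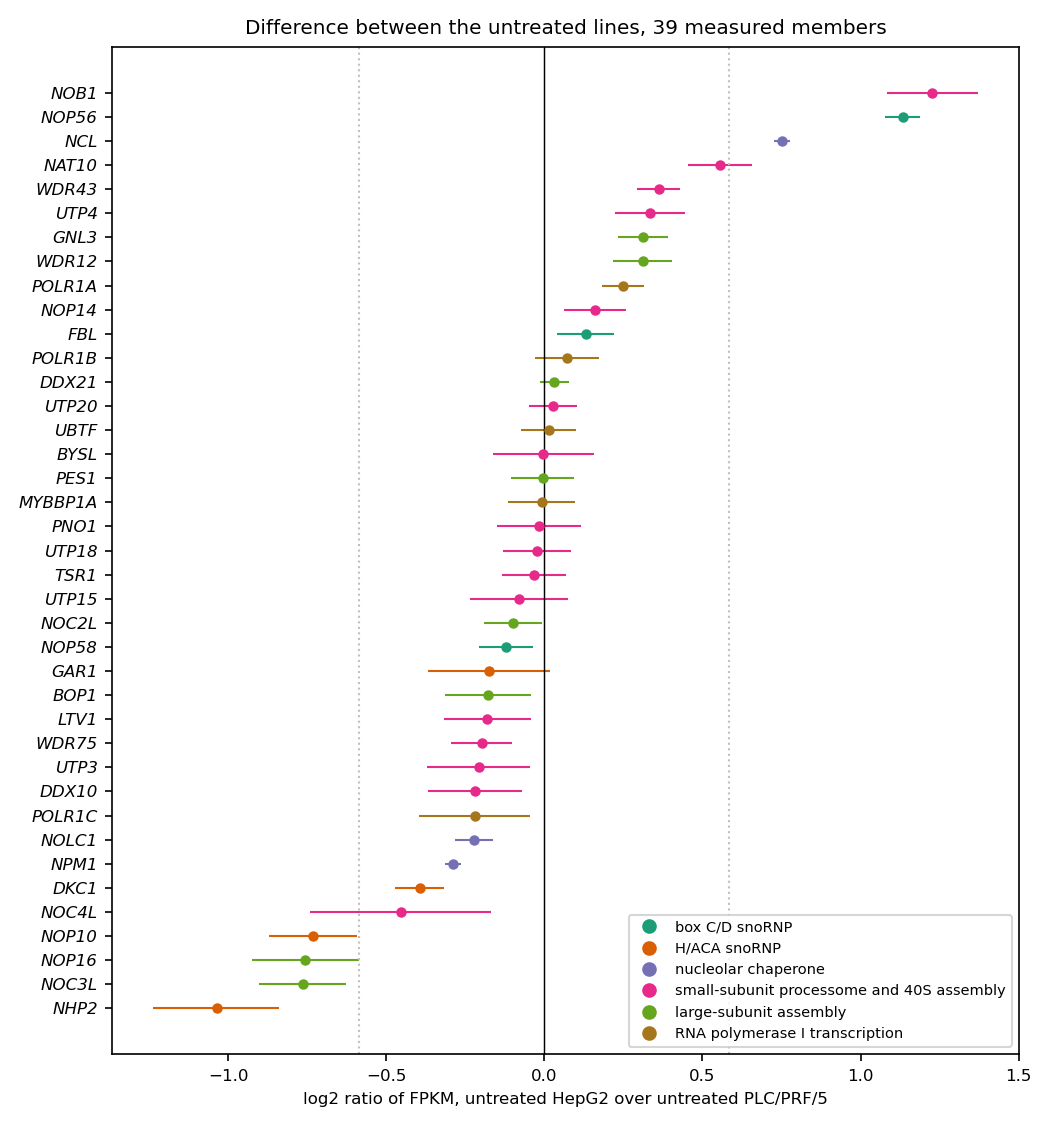
Log2 ratio of FPKM, untreated HepG2 over untreated PLC/PRF/5, for the 39 measured genes in order, with 95% counting intervals, coloured by role; dotted lines mark 1.5-fold. NOB1, NOP56 and NCL lie beyond the upper line, NHP2, NOC3L, NOP16 and NOP10 beyond the lower one, and NHP2, NOP10, DKC1 and GAR1 of the H/ACA particle all lie left of 0 on this deposited scale.

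The treated libraries, which share no sample with the untreated ones, showed much the same difference between the lines. Of the 39 genes, 35 lay on the same side of 0 in treated HepG2 over treated PLC/PRF/5 as in the untreated pair, with a Pearson's r of 0.97 and a Spearman's rho of 0.95 across genes. At 1.5-fold, NOP56, NCL and NOB1 were higher and NHP2 and NOP10 lower in treated HepG2, against 13.8% higher and 22.7% lower over all genes. The log2 ratio of NOP16 there was -0.58 and that of NOC3L -0.47. A limma fit over the 4 libraries with treatment as a block, chosen after these values were seen, tested the line difference. It had 1 residual degree of freedom and no separate measure of the spread between replicate cultures of a line. The fit called 12 of the 39 genes at an adjusted p of 0.05, 7 higher and 5 lower in HepG2, against 54.9% of the 12838 genes tested. By direction, 23.1% of all genes were called higher and 31.8% lower.

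NOP56 was higher in HepG2 than in PLC/PRF/5 by 1.00 on the log2 scale (SE 0.089, limma adjusted p = 0.0042), and NOB1 by 1.01 (SE 0.10, limma adjusted p = 0.0049). NHP2 was lower by a log2 difference of -0.88 (SE 0.086, limma adjusted p = 0.0047). The others called higher were NCL, NAT10, WDR43, GNL3 and WDR12, and the others called lower were NOP10, NOP16, NOC3L and DKC1. The same 7 genes that passed 1.5-fold between the untreated libraries were called in each of 6 fits. These varied the model, the filter, the pseudocount or the scale. All 6 used the same 4 libraries, the untreated ones included, so they are no separate support for the 7 genes. Between 7 and 13 of the set were called in these fits, against 42.4% to 63.6% of all genes tested. Without the treatment block the count was 7, against 42.4% of all genes. Of the H/ACA genes, NHP2 and NOP10 were called in every fit run. DKC1 was not called without the trend, without the treatment block or by the median of ratios, and GAR1 was called in none of the 6.

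Other genes of ribosome biogenesis, in 6 lists that hold none of the RRP genes described after them, had medians close to 0 on the deposited scale. The 33 measured further genes of the small-subunit processome had median log2 ratios of -0.14 in HepG2 and -0.11 in PLC/PRF/5. The 50 further large-subunit genes had medians of -0.07 in each line, and the 17 further genes of RNA polymerase I had -0.13 and -0.09. The 11 genes of small nucleolar particle assembly had -0.08 and -0.19, the 14 of the RNA exosome -0.17 and -0.14, and the 7 of late small-subunit maturation -0.10 and -0.15. Past 1.5-fold in HepG2 was 1 gene of these lists, POLR2L, a subunit shared by all 3 nuclear polymerases. It stood at 12.1 FPKM in treated HepG2 against 19.7 FPKM in untreated HepG2.

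Past 1.5-fold in PLC/PRF/5 was also 1 gene, EMG1, a ribosomal RNA methyltransferase of the small subunit. It stood at 4.67 FPKM in treated HepG2 against 5.81 FPKM in untreated HepG2, and at 1.26 FPKM in treated PLC/PRF/5 against 7.77 FPKM in untreated PLC/PRF/5. Its PLC/PRF/5 ratio was 0.163 (0.135 to 0.195). No gene of the 40 had a ratio below 0.700 in that line. The 40 genes and these lists were chosen with earlier results of these data known, and without the RRP genes. That floor therefore cannot be read as a trait of the set. The 8 protein-coding genes whose symbols begin with RRP, ribosomal RNA processing factors outside the 40 and outside these lists, had ratios between 0.0719 and 0.146 in PLC/PRF/5, each below that of EMG1, while their HepG2 ratios lay between 0.705 and 1.05. ESF1, a nucleolar processing factor, was the highest of the further small-subunit genes, with ratios of 1.12 in HepG2 and 1.45 in PLC/PRF/5.

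The remaining lists are given by their lowest and highest genes. URB2 and RSL24D1 of large-subunit assembly had ratios of 0.808 and 1.14 in HepG2, and of 0.751 and 1.07 in PLC/PRF/5. TSR2 and RIOK3 of late small-subunit maturation had 0.749 and 0.978 in HepG2, and 0.819 and 1.26 in PLC/PRF/5. POLR1G, the highest of the further RNA polymerase I genes, had 1.11 in HepG2 and 0.982 in PLC/PRF/5. HSP90AA1, a chaperone that helps to assemble small nucleolar particles, stood at 373 FPKM in treated HepG2 against 438 FPKM in untreated HepG2, and at 197 FPKM in treated PLC/PRF/5 against 267 FPKM in untreated PLC/PRF/5. It was the lowest of its list, and NUFIP1 the highest, with ratios of 1.07 and 1.01 in HepG2 and PLC/PRF/5. EXOSC9 and EXOSC6 of the exosome had 0.841 and 0.997 in HepG2, and 0.764 and 1.18 in PLC/PRF/5. In the MYC network, MXD4 and MXD1, both antagonists of MYC, had 0.689 and 1.23 in HepG2, and 0.917 and 1.36 in PLC/PRF/5. Of the sterol genes, MSMO1 stood at 5.57 FPKM in treated HepG2 against 70.4 FPKM in untreated HepG2, and INSIG1 at 3.57 FPKM in treated PLC/PRF/5 against 16.6 FPKM in untreated PLC/PRF/5. INSIG1 ranked highest only through HepG2, where it was too low to be measured, at 0 FPKM treated and 0.0164 FPKM untreated. In PLC/PRF/5 its log2 ratio was -1.95, close to the -1.96 of MSMO1.

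MYC, the transcription factor of the E-box, stood at 41.7 FPKM in treated HepG2 against 37.7 FPKM in untreated HepG2, and at 26.9 FPKM in treated PLC/PRF/5 against 20.2 FPKM in untreated PLC/PRF/5. The ratios were 1.11 (1.05 to 1.16) and 1.33 (1.25 to 1.41), with log2 ratios of 0.14 and 0.39. The 17 measured genes with an E-box in the promoter window had median log2 ratios of -0.09 in HepG2 and -0.08 in PLC/PRF/5. The 19 measured genes with a matched promoter and no E-box had -0.07 and -0.11. The 2 groups overlapped over most of their range, from -0.23 to 0.15 with an E-box and from -0.18 to 0.25 without one in HepG2. Whether the level of MYC bears on any of these values was not tested.

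Small nucleolar RNAs, which the box C/D and H/ACA proteins carry, could hardly be read here. Of 26 annotated within 8 of the 40 genes, 16 were in the table. They had 63 fragments in all in treated HepG2 against 58 in untreated HepG2, and 50 in treated PLC/PRF/5 against 72 in untreated PLC/PRF/5.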

How the data were processed

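Total RNA of the 4 cultures was sequenced. TopHat2 and the build GRCh38 are named in the submitters' processing notes. Which program counted, with which annotation release, and whether libraries kept strand is not stated in the labels. The authors deposited FPKM, 1 column per library. With GENCODE 29 exon lengths, FPKM of 24452 genes (75.3%) came out as whole fragments within 0.001. For 8014 more the nearest length giving whole fragments was used, 26 of the 40 genes among them, and 13 stayed unsolved. The 40 genes and further lists were chosen with earlier results of these data known. Positions are those of GENCODE 29.

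Each contrast used log2(FPKM + 1) and genes of at least 1 FPKM in either library. The pseudocount of 1 understates changes of low genes. Counting intervals are exact (Clopper-Pearson) and ratio-of-ratios intervals normal on log counts, or exact conditional below 500 fragments. Tests across genes used limma 3.58.1 (trend, genes of at least 1 FPKM in at least 2 libraries, Benjamini-Hochberg adjustment over all genes) in R 4.3.3, and the rest was computed in Python 3.11.15 with SciPy 1.17.1. In the fits with both line and treatment, the p-values rest on 1 residual degree of freedom, the difference in response between the lines. By sharing spread across genes limma raised this to a median of 4.04. Each line with each treatment was 1 culture, so the p-values hold no separate measure of the spread between replicate cultures. In simulated data for the shared effect of PF429242 (12837 genes), limma recovered 32%, 88% and 95% of genes changed 1.5-fold, 2-fold and 4-fold and called 30 unchanged genes. The simulation changed only genes with many fragments, gave both lines the same fold and added little noise. In the deposited data the same fit called 0 of 12838 genes, and so none of the sterol genes. The simulated shares therefore do not carry over to these libraries.

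Named are all 40 genes, the gene of each further list with the lowest and the one with the highest mean log2 ratio of both lines, MYC and the RRP genes as a group. Alternatives were another pseudocount, filter, fold, scale, background or fit. The comparison between lines over 4 libraries, and leaving out overlapping genes, were added after seeing the data.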

Additional observations from a re-analysis of the deposited data

Results flagged for a closer look

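NOP56 and NPM1 were the genes of the set whose counting intervals lay on opposite sides of 1 in the 2 lines. The log2 ratio of NOP56, PF429242 over control, was -0.10 in HepG2 and 0.13 in PLC/PRF/5, a difference of -0.23. That of NPM1 was 0.06 in HepG2 and -0.16 in PLC/PRF/5, a difference of 0.22. With 1 library a group neither difference was tested against replicates. The signs of the separate ratios move with the scale. For NOP56 they were 0.11 in HepG2 and 0.25 in PLC/PRF/5 by the median of ratios, and -0.43 and -0.20 in TPM. For NPM1 they were 0.27 in HepG2 and -0.04 in PLC/PRF/5 by the median of ratios, and 0.23 and -0.13 with equal nuclear sums. In TPM the NPM1 values were -0.28 and -0.50, the only scale with both on the same side of 0.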

How the results depend on the processing

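Of 100 alternatives tried over 12 results, 89 left the value within its tolerance and 11 moved it. The median of the 39 genes minus that of all genes, 0.082 in HepG2 and 0.034 in PLC/PRF/5, was 0.031 and 0.0015 with a pseudocount of 5, and -0.056 and -0.071, below 0 in both lines, with no filter on low values, where genes at 0 enter the background. On the TPM scale 4 genes (UBTF, NOC3L, NHP2 and GAR1) were 1.5-fold lower in treated PLC/PRF/5 in place of 0. The 4 genes lower in untreated HepG2 than in untreated PLC/PRF/5 were 2 with a pseudocount of 5, 1 in TPM, 0 at 2-fold and 2 without overlapping genes. The median difference in response was 0.10 by the median of ratios in place of 0.02, and the 12 genes called between the lines were 7 without the treatment block. Over all genes tested, 54.9% were called with that block and 42.4% without it. The causes were not tested. A planned count model on recovered fragments was run and set aside, since a count test is not accepted here for FPKM; recovered fragments serve only for counting intervals. It too called no gene of the set for the treatment, but its genes of the set with a low unadjusted p were higher with PF429242. That is the opposite of NOP10 and UBTF. It also called somewhat more genes of the set between the lines than limma did. Its numbers and its shares over all genes are not given here, so neither result can be set against the background. The groups are single libraries, so leaving a replicate out gives no value. Treated and untreated libraries are paired by line in the shared fit, which without that block called 0 genes of the set as well; each group has 1 library, so no replicate number could be a block. With 161 fragments at the least, NOC4L has the widest HepG2 interval of the 39, and NOP2 is too low for a ratio to be read.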
